A study of Mus musculus with 12 samples.

Results

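The canonical, replication-dependent histone genes encode the linker histone H1 and the core histones H2A, H2B, H3 and H4. They were taken as the rows of the expression table whose Ensembl ID carries, in GENCODE M21, a symbol of the form Hist1 to Hist4 followed by a histone class and the biotype protein coding. The annotation holds 67 such genes, of which 66 were in the table of 40384 genes. Hist1h2aa was not analysed here. By class they are 6 H1, 17 H2A, 18 H2B, 12 H3 and 13 H4 genes, and by cluster 53 genes of Hist1 on chromosome 13, 10 of Hist2 on chromosome 3, 2 of Hist3 on chromosome 11 and 1 of Hist4 on chromosome 6 (GRCm38). The cells descend from male homozygous 4F2A mouse embryos of mid-gestation, whose doxycycline-inducible cassette encodes Oct4, Sox2, Klf4 and Myc. The groups, each with 3 libraries, were D4_DUX (day 4 of reprogramming, treatment OE-DUX, with overexpression for 48 h), D4 (day 4, treatment OE-NC, the overexpression control), iPSC (induced pluripotent stem cells) and MEF (embryonic fibroblasts). A medium with LIF and 2 μg/mL doxycycline is described in the same words for every group, MEF included. The series deals with Dux, a homeobox transcription factor of the early embryo, in reprogramming to pluripotency. The labels do not say whether the libraries of a group are separate cultures, so the p-values measure the spread between these libraries only.

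Canonical histone genes are transcribed mainly in S phase, when new chromatin needs histones in bulk. Their messages end, unlike those of other protein-coding genes, in a conserved stem-loop rather than a poly(A) tail. The stem-loop is bound by SLBP, and the transcript is cut downstream of it with the help of the U7 snRNP. In differentiating or non-dividing cells, some of these genes are also known to give polyadenylated transcripts from poly(A) signals further downstream. The libraries were made from RNA selected with oligo(dT) beads, so every level below is the level of messages that this selection retained, and the part of the histone mRNA pool without a tail was not measured.

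Values are FPKM, fragments scaled by gene length and by library total, as the authors deposited them. Depth was 22465000 to 28065000 counted fragments per library, so that 3 fragments, taken as the floor, correspond to 0.267 to 0.334 FPKM for a gene of 400 bases and to 0.107 to 0.134 FPKM for a gene of 1000 bases. The floor covers counting error only. Duxf3, the gene named Dux, had 0, 0 and 0 FPKM in D4_DUX, 0.00741, 0.00747 and 0 FPKM in D4, 0.00385, 0.00384 and 0.0247 FPKM in iPSC and 0, 0 and 0.0132 FPKM in MEF, at most 1.75 fragments in a library. The table thus gives no check of the overexpression, and every direction for D4_DUX below is one for the libraries labelled D4_DUX. Macrophage markers were summed as an index of another cell type in the cultures. Their 16 genes summed to 47.9 to 49 FPKM in D4_DUX, 194 to 232 in D4, 141 to 186 in iPSC and 1707 to 1748 in MEF libraries, with Lyz2 alone at 1303 ± 22.7 FPKM in MEF (SD, n = 3). Fibroblast markers (10 genes) summed to 2693 ± 37.6 FPKM in D4_DUX, 3481 ± 66.3 in D4, 917 ± 128 in iPSC and 6320.2 ± 79.9 in MEF, and pluripotency markers (10 genes) to 168 ± 5.03, 120.2 ± 13.2, 1659 ± 87.5 and 5.77 ± 0.812 FPKM in the same order of groups. The pluripotency list includes Pou5f1 (Oct4) and Sox2, which the cassette encodes, and the values do not separate cassette from endogenous messages. Pou5f1 had means of 72.3 FPKM in D4_DUX, 51.6 in D4, 210 in iPSC and 0 in MEF. Nanog, which the cassette does not encode, had 0.177, 0.276, 112 and 0.201 FPKM, so the day 4 sums are no index of pluripotent cells. The part of the shifts in these 3 marker lists in the histone differences was not tested, and in bulk RNA fewer cells that express a gene and less of its RNA per cell cannot be told apart.

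The 3′ ends of the genes are shown first because the selection of the libraries acts on them. Of the 67 annotated genes, 54 have an annotated 3′ UTR, and 44 of these (81.5%) hold the stem-loop, searched on the sense strand as 16 bases whose left arm begins with GG and ends with CT, whose loop has T as its second base, whose right arm begins with AG and ends with CC, and whose other bases are free, against 199 of 21069 other protein-coding genes with a 3′ UTR (0.945%). The poly(A) signal AATAAA stands in 19 of the 54 (35.2%), against 82.5% of the other genes. The stem-loop begins 22 to 59 bases after the stop codon, with a median of 32. It came in 6 forms, printed here with the arms of the stem in capitals and the loop in lower case, each with a gene that carries it (GENCODE M21 transcripts, GRCm38).
Hist1h1c: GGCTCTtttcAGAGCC
Hist1h2bk: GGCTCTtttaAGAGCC
Hist2h2ac: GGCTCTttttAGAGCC
Hist1h4m: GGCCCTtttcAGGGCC
Hist1h4i: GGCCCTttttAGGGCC
Hist1h4j: GGTCCTtttcAGGACC
The form of Hist1h1c (chr13:23739512-23739527, plus strand) was found in 26 genes, none of them H4. The form of Hist1h2bk occurred in 6 genes of H1, H2B and H3, and that of Hist2h2ac in this gene alone. The H4 genes carried other arms. The form of Hist1h4m (chr13:21812129-21812144, plus strand) was found in 7 genes, that of Hist1h4i in 2 and that of Hist1h4j in 2, all of them H4.

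Both genes with the most polyadenylated message have long annotated 3′ ends. Hist1h1c (ENSMUSG00000036181, chr13:23738808-23740367, 1 exon) has a 3′ UTR of 880 bases with both the stem-loop and AATAAA. Hist1h2bc (ENSMUSG00000018102, chr13:23684199-23692908, 2 exons) has a 3′ UTR of 742 bases with AATAAA and without the stem-loop. Hist1h4m (ENSMUSG00000069306, chr13:21811746-21812147, 1 exon), by contrast, has 52 bases of 3′ UTR with the stem-loop and no AATAAA, and it was among the highest members in D4_DUX. The 19 members with AATAAA had a median group mean of 1.18 FPKM in D4_DUX, 0.656 in D4, 0.908 in iPSC and 0.34 in MEF. The 35 members with a 3′ UTR but no AATAAA had medians of 1.54, 0.81, 1.06 and 0.264 FPKM in D4_DUX, D4, iPSC and MEF. The members without AATAAA thus had the higher median in D4_DUX, D4 and iPSC and the lower median in MEF, while the highest group mean in D4_DUX was 89 FPKM with AATAAA and 48.4 FPKM without it. FPKM divides by annotated length, which runs from 539 to 7425 bases with AATAAA and from 391 to 1930 bases without it. The part of length in these medians was not tested. The MEF median without AATAAA lies near the floor of a gene of 400 bases (0.267 to 0.334 FPKM). Genes with AATAAA are all longer than that, so this floor does not apply to their MEF median of 0.34 FPKM. For a gene of 1000 bases the floor is 0.107 to 0.134 FPKM. Stem-loop and AATAAA stood together in 14 members, AATAAA alone in 5 (Hist1h2bq, Hist1h2br, Hist1h2bc, Hist2h2be and Hist1h4a). A missing annotated UTR, in 12 members, says nothing about their 3′ ends.

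Promoter windows of 300 bases, from RefSeq (GRCm38.p6), were found for 61 of the annotated genes and gave 62 windows. They were searched on both strands for ATTTGCAT, the octamer of H2B promoters, for CCAAT and for TATAAA, each counted on its own, so that a base may belong to matches of CCAAT and of the octamer. The octamer was in 7 of 17 H2A windows (41.2%) and 7 of 17 H2B windows (41.2%), in none of the H1, H3 and H4 windows, and in 1.7% of 32789 other promoters. CCAAT was in every H1, H2A, H2B and H3 window but in only 3 of 12 H4 windows (25%), against 37.3% of other promoters. TATAAA was in 35 of the 62 windows (56.5%), against 4438 of the 32789 other promoters. A match is a description of the letters, not a bound site. The windows of Hist1h2ac (chr13:23683910-23684209, minus strand) and Hist1h4m (chr13:21811496-21811795, plus strand) are shown with these motifs in capitals, the first because it spans the 250 bases between Hist1h2ac and Hist1h2bc, the second because Hist1h4m differed most between D4_DUX and D4.
Hist1h2ac: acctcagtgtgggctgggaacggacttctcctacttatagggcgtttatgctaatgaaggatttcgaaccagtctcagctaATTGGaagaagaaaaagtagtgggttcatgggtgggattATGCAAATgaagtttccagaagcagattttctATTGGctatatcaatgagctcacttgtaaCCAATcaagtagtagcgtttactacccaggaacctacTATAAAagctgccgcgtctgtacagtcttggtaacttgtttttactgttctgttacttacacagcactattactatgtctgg
Hist1h4m: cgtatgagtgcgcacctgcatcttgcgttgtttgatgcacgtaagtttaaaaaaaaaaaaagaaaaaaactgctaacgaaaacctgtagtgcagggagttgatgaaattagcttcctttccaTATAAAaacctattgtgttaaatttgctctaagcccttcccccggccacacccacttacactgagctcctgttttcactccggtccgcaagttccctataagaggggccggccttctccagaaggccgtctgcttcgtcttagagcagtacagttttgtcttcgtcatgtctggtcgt
The Hist1h2ac window holds 5 matches (1 octamer, 3 CCAAT and 1 TATAAA, counted on both strands), the Hist1h4m window 1 TATAAA. The window of Hist1h4n, a gene in the opposite orientation, shares 298 of 299 bases with that of Hist1h4m, and their coding sequences of 309 bases are the same.

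Summed over the 66 genes, canonical histone messages were lowest in MEF and highest in the libraries labelled D4_DUX. The sums were 413, 384 and 410.3 FPKM in D4_DUX, 280.3, 277 and 268 FPKM in D4, 255, 232 and 222 FPKM in iPSC, and 79.7, 81.4 and 89 FPKM in MEF libraries. No library of a group overlapped with another group. The mean in D4_DUX was 1.46 times that in D4, the mean in D4 was 3.3 times that in MEF, and the mean in iPSC was 2.83 times that in MEF. Hist1h1c and Hist1h2bc made up 41.7 to 43.4% of the sum in D4_DUX, 56.2 to 58.9% in D4, 41.5 to 47.3% in iPSC and 55.8 to 59.5% in MEF. Without these genes the sums were 231 ± 11.9 FPKM in D4_DUX, 116 ± 1.35 in D4, 130.1 ± 16.5 in iPSC and 35.6 ± 3.38 in MEF (SD, n = 3), ratios of 1.99, 3.26 and 3.66 for D4_DUX over D4, D4 over MEF and iPSC over MEF. Leaving both out is an alternative chosen after seeing the data.

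The classes did not move in proportion. H4 messages summed to 113 ± 6.57 FPKM in D4_DUX, 44.1 ± 2.42 in D4, 50.1 ± 7.98 in iPSC and 9.15 ± 1.4 in MEF (SD, n = 3 each), ratios of 2.56, 4.82 and 5.48 for D4_DUX over D4, D4 over MEF and iPSC over MEF. H3 messages stood at 25.5 ± 2.63, 11.2 ± 0.779, 18.5 ± 3.55 and 4.09 ± 0.314 FPKM in the same groups, with ratios of 2.28, 2.73 and 4.53. The sums of H2A were 48.2 ± 1.86, 28.6 ± 0.525, 32.1 ± 6.63 and 11.8 ± 1.26 FPKM. For H2B they were 129 ± 5.35, 94.7 ± 3.87, 76.7 ± 2.23 and 29.6 ± 2.14 FPKM, a ratio of D4_DUX over D4 of 1.36, against 1.68 for H2A. H1 was the class whose sum was lower in D4_DUX than in D4, at 86.9 ± 1.86 against 96.4 ± 4.62 FPKM, a ratio of 0.901. Its sum was 58.6 ± 3 FPKM in iPSC and 28.8 ± 1.46 FPKM in MEF. Without Hist1h1c the other 5 H1 genes summed to 4.32 ± 0.183 FPKM in D4_DUX and 3.41 ± 0.277 in D4, so the direction of the H1 class rests on this gene. By cluster, the ratios of D4_DUX over D4 and of D4 over MEF were 1.44 and 3.4 for Hist1, 1.75 and 3 for Hist2, and 1.1 and 1.09 for Hist3.

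**Figure D1:**
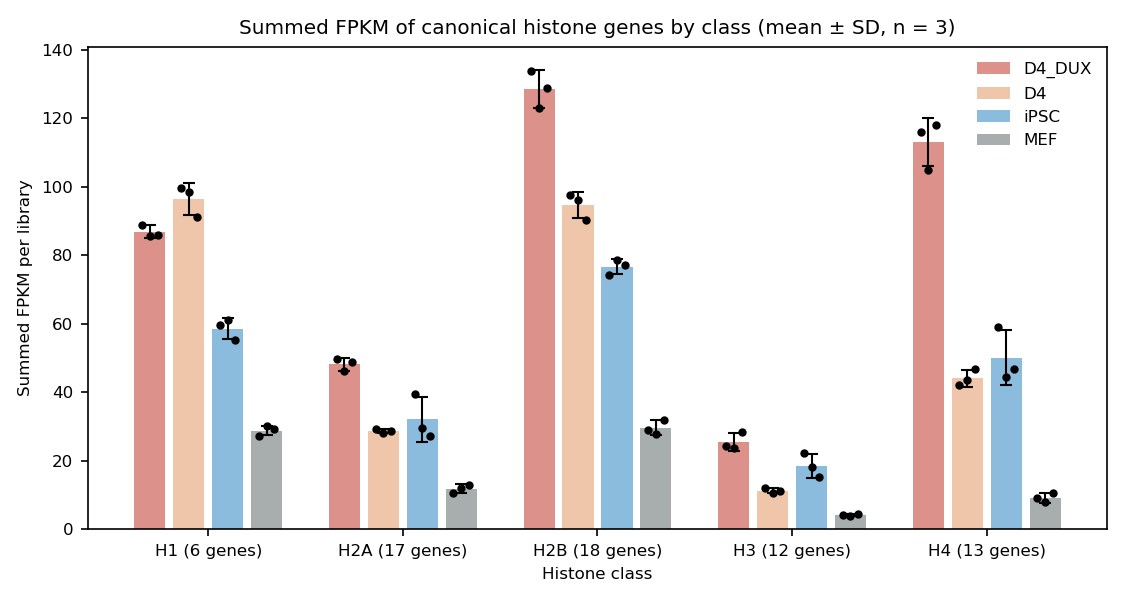
Summed FPKM of the canonical histone genes of each class (bars: mean of 3 libraries, error bars: SD, points: libraries), for D4_DUX, D4, iPSC and MEF. H4 stands at 113 FPKM in D4_DUX against 44.1 FPKM in D4, while H1 stands at 86.9 FPKM in D4_DUX against 96.4 FPKM in D4.

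The levels of single genes were uneven. The group mean reached 10 FPKM in at least 1 group for 9 members (Hist1h1c, Hist1h2bc, Hist1h2bg, Hist2h2aa1, Hist2h2aa2, Hist1h4m, Hist1h4n, Hist1h4i and Hist1h4h), while the mean stayed under 1 FPKM for 30 members in D4_DUX, 39 in D4, 34 in iPSC and 56 in MEF. All libraries of MEF were under the floor of 3 fragments for 20 members. The highest of the 4 group means was that of D4_DUX in 42 of 66 members, iPSC in 21, D4 in 3 and MEF in 0, and the lowest was that of MEF in 55. For 31 of 66 members every D4_DUX library was above every D4 library and every D4 library above every MEF library, against 6.93% of genes above 0 in any of these 9 libraries.

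For the test, a gene needed at least 1 FPKM in at least 3 of the 12 libraries, which 40 of the 66 members reached (2 H1, 8 H2A, 14 H2B, 7 H3 and 9 H4). The other 26 had too little signal and were described by level only. Of the 40, 6 reached 1 FPKM in the libraries of 1 group only, Hist1h2af, Hist2h2be and Hist3h2ba in iPSC and Hist1h2be, Hist1h4a and Hist1h4c in D4_DUX. Others reached it elsewhere too, but in too few libraries to pass without the groups given next. Hist1h2bb, Hist2h2bb and Hist2h4 needed D4_DUX, Hist1h3g needed iPSC, and Hist1h2ae, Hist1h2ah and Hist1h3i needed both. The filter itself selected all these genes for being high in the group or groups named. Their calls for those groups, and the counts over the 40 that include them, are descriptions and not support. Calls are those of limma with p-values adjusted by Benjamini-Hochberg across the 17114 genes that passed, at a threshold of 0.05. Each fold change is a difference of log2(FPKM + 1), a scale that understates the change of genes at low FPKM.

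In the libraries labelled D4_DUX, the comparison that asks what the Dux label changed at day 4, 26 of the 40 tested members were higher than in D4 (background over all genes tested 20.1%) and 1 was lower (15.4%). The median log2 fold change of the 40 was 0.48, against 0.02 over all genes tested. Over all 66 members, libraries lay apart with D4_DUX higher for 40 (17.5% of all genes with a value) and lower for 2 (14.1%). The higher calls covered 8 of 9 tested H4 genes, 6 of 7 H3, 7 of 14 H2B, 4 of 8 H2A and 1 of 2 H1. The largest log2 fold changes among the called members were those of Hist1h4m, Hist1h4n, Hist1h2ab, Hist2h3c2 and Hist1h3b. The lower call was that of Hist1h1c.

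Between D4 and MEF, the step from fibroblasts into reprogramming, 30 of the 40 tested members were higher in D4 (background 34.2%) and 1 was lower (27.6%). Their median log2 fold change was 0.74, against 0.03 over all genes tested. Both tested H1 genes, 6 of 8 H2A, 10 of 14 H2B, 4 of 7 H3 and 8 of 9 H4 genes were higher. Hist1h4m, Hist1h4h, Hist2h2aa1, Hist1h1c and Hist1h2bc stood at the upper end, and the lower call was that of Hist2h2be. Without the filter, libraries lay apart with D4 higher for 42 of the 66 members (23.9% of all genes with a value) and lower for 1 (20.6%).

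In iPSC, 38 of the 40 tested members were higher than in MEF (background 51%) and 0 were lower (31.2%), and Hist1h2bj and Hist2h2bb did not pass. Their median log2 fold change was 0.74, against 0.21 over all genes tested, a shift of the typical gene against which the iPSC values are to be read. Scaling by median ratio put the median of all genes at 0.0384, and quantile normalization put it at -0.0683. With quantile normalization 22 of the 40 members were higher in iPSC (38.6% of all genes tested) and 0 lower (44.2%). Over all 66 members, 52 lay apart with iPSC higher (37.2% of all genes with a value) and 0 with iPSC lower (18.3%). The D4 and iPSC differences share the MEF libraries, and the D4_DUX and D4 differences share the D4 libraries, so their values are given side by side and were not correlated.

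**Figure D2:**
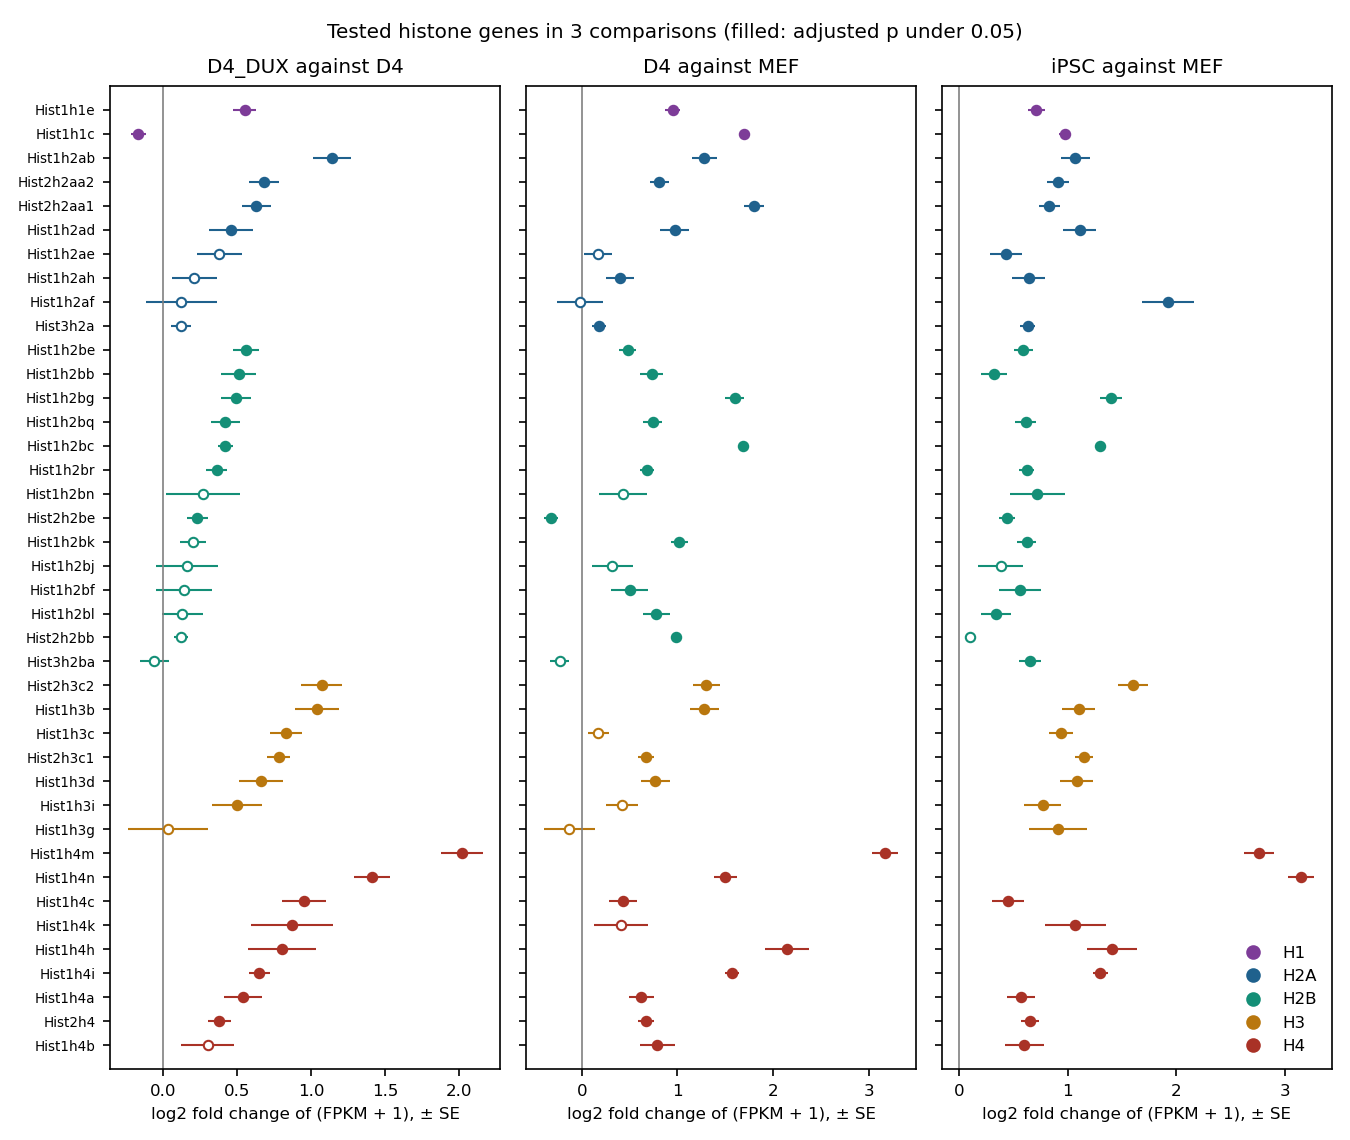
Log2 fold change of (FPKM + 1) ± SE for the 40 tested members in D4_DUX over D4, D4 over MEF and iPSC over MEF, coloured by class and ordered within a class by the first comparison (filled: adjusted p under 0.05). Hist1h4m and Hist1h4n lead the H4 genes in the first comparison at 2.02 and 1.41, and Hist1h1c lies below 0 at -0.17 there and at 1.7 in D4 against MEF.

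H1, the linker histone that binds DNA between nucleosomes, was represented almost entirely by Hist1h1c. Hist1h1c had 84.7, 81.1 and 81.8 FPKM in D4_DUX, 96.3, 95.2 and 87.4 FPKM in D4, 56.2, 58.1 and 52.6 FPKM in iPSC, and 26.5, 28.9 and 28.5 FPKM in MEF libraries. All 3 libraries labelled D4_DUX were below all 3 D4 libraries, and MEF was lowest. The log2 fold change was -0.17 (SE 0.05, adjusted p = 0.0218) in D4_DUX against D4, 1.7 (SE 0.05, adjusted p = 1.32e-10) in D4 against MEF and 0.97 (SE 0.05, adjusted p = 4.05e-09) in iPSC against MEF. Its call in D4_DUX against D4 ended when D4_DUX replicate 2 or 3 or D4 replicate 1 or 2 was left out (adjusted p = 0.0638 to 0.0824) and without a filter on low values (adjusted p = 0.0518). Hist1h1e, another somatic H1 gene (chr13:23620629-23622558), had 2.41, 2.36 and 2.73 FPKM in D4_DUX, 1.64, 1.26 and 1.28 FPKM in D4, 1.09, 1.07 and 0.917 FPKM in iPSC, and 0.18, 0.221 and 0.321 FPKM in MEF libraries. The groups did not overlap, and Hist1h1e was higher in D4_DUX than in D4 (0.55, SE 0.08, adjusted p = 0.000252), in D4 than in MEF (0.95, adjusted p = 5.79e-07) and in iPSC than in MEF (0.71, adjusted p = 3.04e-06). Its exons overlap those of Hist1h2be on the same strand, and fragments there cannot be assigned to either.

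The other 4 H1 genes did not pass the filter. Hist1h1b had 0.633, 0.852 and 0.59 FPKM in D4_DUX, 0.866, 0.894 and 1.33 FPKM in D4, 0.56, 0.446 and 0.359 FPKM in iPSC and 0.328, 0.516 and 0.287 FPKM in MEF. Like Hist1h1c, it lay lower in every D4_DUX library than in every D4 library. Means of Hist1h1a were 0.633 ± 0.203 FPKM in D4_DUX, 0.529 ± 0.103 in D4, 0.9 ± 0.145 in iPSC and 0.0483 ± 0.0596 in MEF, and those of Hist1h1d 0.463 ± 0.0655, 0.433 ± 0.0167, 0.521 ± 0.0357 and 0.106 ± 0.02 FPKM. Hist1h1t, the testis H1 gene, stayed under 3 fragments in every library, as did Hist1h2ba, the testis H2B gene.

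H2A pairs with H2B in the nucleosome. Its leading genes were the neighbours Hist2h2aa1 (chr3:96245497-96246082) and Hist2h2aa2 (chr3:96239749-96240276), whose coding sequences of 390 bases are the same. Exons of Hist2h2aa1 overlap Gm20634 on the same strand. Hist2h2aa1 had 18, 17.5 and 17.9 FPKM in D4_DUX, 11.5, 10.7 and 11.3 FPKM in D4, 6.24, 4.86 and 4.55 FPKM in iPSC and 1.98, 2.73 and 2.81 FPKM in MEF libraries. Hist2h2aa2 had 13.8, 13.4 and 14.2 FPKM in D4_DUX, 8.51, 8.48 and 7.83 FPKM in D4, 10.5, 8.45 and 8.07 FPKM in iPSC and 3.59, 4.63 and 4.7 FPKM in MEF libraries. For both genes D4_DUX was above all other groups and MEF below them. Since fragments of the shared sequence can be split between the copies, their recovered fragments were also added. The sum, scaled to the library total (CPM), was 17.7 ± 0.329 CPM in D4_DUX, 10.9 ± 0.264 in D4, 7.81 ± 1.22 in iPSC and 3.74 ± 0.594 in MEF (SD, n = 3), ratios of 1.63, 2.91 and 2.09. By gene the log2 fold changes were 0.63 and 0.68 in D4_DUX against D4 (adjusted p = 0.000874 and 0.000329), 1.8 and 0.81 in D4 against MEF (3.78e-08 and 1.76e-05), and 0.83 and 0.91 in iPSC against MEF (1.42e-05 and 2.73e-06), with Hist2h2aa1 first.

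Hist1h2ab (chr13:23751126-23751598) had 5.48, 3.77 and 5.04 FPKM in D4_DUX, 1.63, 1.17 and 2.04 FPKM in D4, 1.47, 1.22 and 1.05 FPKM in iPSC and 0.045, 0.0783 and 0.0751 FPKM in MEF, under 3 fragments in each MEF library. It was higher in D4_DUX than in D4 by 1.14 on the log2 scale (SE 0.13, adjusted p = 8.26e-05), a ratio of mean FPKM of 2.95. Hist1h2af (chr13:23533906-23534304) followed another order. It had 0.795, 0.63 and 0.759 FPKM in D4_DUX, 0.48, 0.519 and 0.781 FPKM in D4, 8.95, 3.19 and 4.44 FPKM in iPSC and 0.551, 0.45 and 0.851 FPKM in MEF libraries. The iPSC libraries stood above all others, and the other groups overlapped. Its log2 fold change was 1.92 (SE 0.24, adjusted p = 1.42e-05) in iPSC against MEF, 0.12 (adjusted p = 0.754) in D4_DUX against D4 and -0.02 (adjusted p = 0.967) in D4 against MEF. Hist3h2a, the H2A gene of the small cluster on chromosome 11, had 2.91, 2.68 and 2.49 FPKM in D4_DUX, 2.34, 2.4 and 2.42 FPKM in D4, 3.88, 3.19 and 3.83 FPKM in iPSC and 2.02, 1.88 and 2.08 FPKM in MEF. It was higher in iPSC than in MEF (0.63, adjusted p = 2.65e-06), while its call in D4 against MEF (0.18, adjusted p = 0.0324) ended under 8 of the alternatives, among them leaving out D4 replicate 1, 2 or 3 or MEF replicate 1 or 2. Its exons overlap Trim17 on the same strand.

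H2B was led by Hist1h2bc, the member with the highest level in D4_DUX. Hist1h2bc had 91.9, 85.8 and 89.2 FPKM in D4_DUX, 68.8, 66.6 and 63.3 FPKM in D4, 49.7, 51.4 and 50.1 FPKM in iPSC and 18.9, 19.5 and 21.2 FPKM in MEF libraries. The groups stood apart in this order. Its log2 fold change was 0.42 (SE 0.05, adjusted p = 5.2e-05) in D4_DUX against D4, 1.69 (SE 0.05, adjusted p = 6.91e-11) in D4 against MEF and 1.3 (SE 0.05, adjusted p = 1.41e-10) in iPSC against MEF. Hist1h2bg (chr13:23571396-23572013), an H2B gene of the same cluster, had 22.2, 18.5 and 21 FPKM in D4_DUX, 14.8, 14.7 and 13.6 FPKM in D4, 11.1, 13.4 and 12.6 FPKM in iPSC and 3.35, 4.11 and 4.82 FPKM in MEF libraries. It was higher by 0.49 (SE 0.1, adjusted p = 0.00378), 1.6 (adjusted p = 9.26e-08) and 1.4 (adjusted p = 9.97e-08) in D4_DUX over D4, D4 over MEF and iPSC over MEF. Hist1h2bk was at 2.67 ± 0.3 FPKM in D4_DUX, 2.19 ± 0.174 in D4, 1.42 ± 0.151 in iPSC and 0.58 ± 0.187 in MEF (SD, n = 3), higher in D4 than in MEF (1.02, adjusted p = 1.76e-06) and in iPSC than in MEF (0.62, adjusted p = 5.59e-05), and with 0.2 (adjusted p = 0.113) in D4_DUX against D4. Hist1h2bq had 2.52, 2.18 and 2.09 FPKM in D4_DUX, 1.27, 1.64 and 1.4 FPKM in D4, 0.908, 1.24 and 1.58 FPKM in iPSC and 0.54, 0.413 and 0.416 FPKM in MEF, and its coding sequence is that of Hist1h2br. Together they had 9.1 ± 0.794 CPM in D4_DUX, 5.92 ± 0.576 in D4, 5.34 ± 1 in iPSC and 1.99 ± 0.357 in MEF, ratios of 1.54, 2.98 and 2.68.

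The remaining named H2B genes had patterns of their own. Hist2h2be (chr3:96221119-96223738), with 2192 bases of annotated 3′ UTR, AATAAA and no stem-loop, had 0.531, 0.497 and 0.478 FPKM in D4_DUX, 0.271, 0.315 and 0.245 FPKM in D4, 1.01, 1.3 and 1.19 FPKM in iPSC and 0.644, 0.447 and 0.719 FPKM in MEF. D4 was lower than MEF in every library (log2 fold change -0.32, SE 0.07, adjusted p = 0.00185) and iPSC was higher than MEF (0.44, adjusted p = 0.000119), a call that ended with quantile normalization (0.02, adjusted p = 0.83). Its higher call in D4_DUX against D4 (0.23, adjusted p = 0.0242) ended when any library other than D4 replicate 2 was left out (adjusted p = 0.0508 to 0.0749). Hist2h2bb had 1.28, 1.12 and 1.11 FPKM in D4_DUX, 0.922, 1.12 and 0.967 FPKM in D4, 0.0911, 0.0908 and 0.0914 FPKM in iPSC and 0, 0.0464 and 0 FPKM in MEF. It was above the floor of 3 fragments at day 4 and under it in iPSC and MEF. D4 was higher than MEF by a fitted 0.98 (adjusted p = 1.87e-08), and the predicted gene Gm42743 overlaps Hist2h2bb on its strand. Hist3h2ba had 0.245, 0 and 0.068 FPKM in D4_DUX, 0, 0.328 and 0.131 FPKM in D4, 1.23, 1.01 and 1.05 FPKM in iPSC and 0.361, 0.312 and 0.347 FPKM in MEF, and was higher in iPSC than in MEF (0.65, SE 0.1, adjusted p = 0.000107), a call that ended with quantile normalization (0.18, adjusted p = 0.182). With Hist3h2a it makes up the Hist3 cluster, whose sum was 2.79 ± 0.314 FPKM in D4_DUX, 2.54 ± 0.197 in D4, 4.73 ± 0.473 in iPSC and 2.33 ± 0.126 in MEF.

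**Figure D3:**
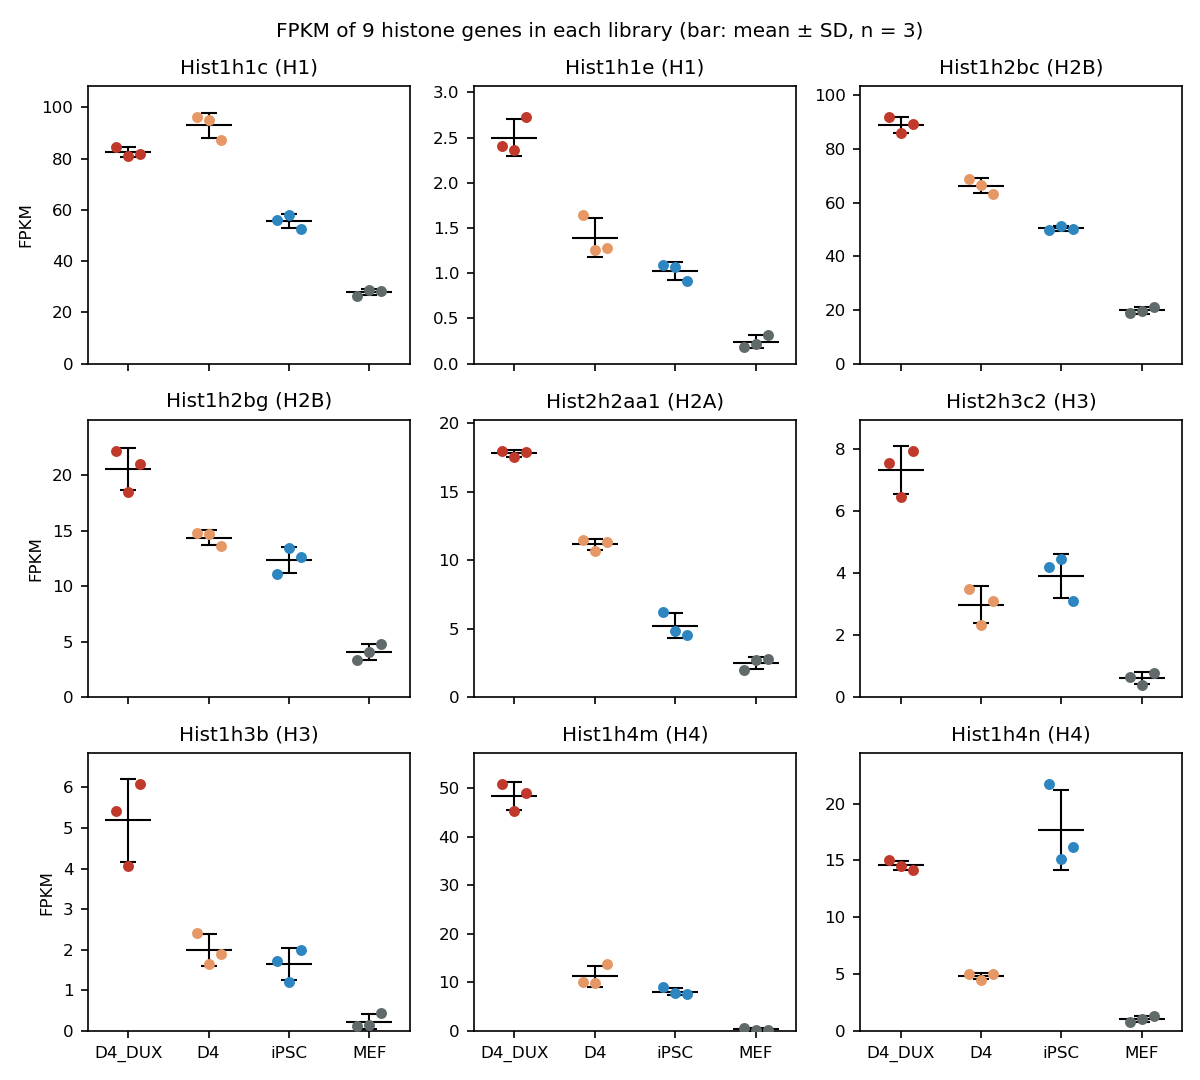
FPKM of 9 members in each library (points) with mean ± SD of 3 libraries, for D4_DUX, D4, iPSC and MEF. Hist1h1c is lower in D4_DUX than in D4, the other 8 are higher in D4_DUX than in D4, and in Hist1h4n iPSC replicate 1 stands highest at 21.7 FPKM.

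H3, which carries many of the modified tail residues of chromatin, was low throughout, with Hist2h3c2 the highest in D4_DUX, D4 and iPSC. In MEF Hist1h3g, at 0.702 FPKM, was above Hist2h3c2, at 0.617 FPKM. Hist2h3c2 (chr3:96238108-96239127) had 7.56, 6.46 and 7.96 FPKM in D4_DUX, 3.51, 2.34 and 3.12 FPKM in D4, 4.2, 4.45 and 3.1 FPKM in iPSC and 0.656, 0.414 and 0.781 FPKM in MEF libraries. D4_DUX was apart from and above D4, iPSC and D4 overlapped, and MEF was below. The log2 fold change was 1.07 (SE 0.14, adjusted p = 0.00017) in D4_DUX against D4, 1.3 (SE 0.14, adjusted p = 7.11e-06) in D4 against MEF and 1.6 (SE 0.14, adjusted p = 4.43e-07) in iPSC against MEF. Hist1h3b (chr13:23752267-23752886), next to Hist1h2ab, had 5.41, 4.07 and 6.08 FPKM in D4_DUX, 2.42, 1.66 and 1.91 FPKM in D4, 1.73, 1.22 and 1.99 FPKM in iPSC and 0.127, 0.139 and 0.438 FPKM in MEF libraries. It was higher by 1.04 (SE 0.15, adjusted p = 0.000429), 1.28 (adjusted p = 2.07e-05) and 1.1 (adjusted p = 3.57e-05) in D4_DUX over D4, D4 over MEF and iPSC over MEF. Hist1h3d averaged 2.96 ± 0.558 FPKM in D4_DUX, 1.51 ± 0.443 in D4, 2.1 ± 0.256 in iPSC and 0.474 ± 0.236 in MEF, and Hist2h3c1 2.94 ± 0.419, 1.3 ± 0.159, 2.22 ± 0.0792 and 0.444 ± 0.0337 FPKM. Both were higher in all 3 comparisons, with log2 fold changes of 0.66, 0.77 and 1.08 for Hist1h3d and of 0.78, 0.67 and 1.15 for Hist2h3c1 (adjusted p at most 0.00596). Exons of Hist2h3c1 overlap Gm20634 on the same strand. Hist2h3b, which differs from Hist2h3c2 at 1 of 408 coding bases, did not pass the filter and was at 0.801 ± 0.114 FPKM in D4_DUX, 0.317 ± 0.0894 in D4, 0.685 ± 0.307 in iPSC and 0.122 ± 0.0453 in MEF.

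H4 held the genes with the largest differences. Hist1h4m had 50.8, 45.2 and 49 FPKM in D4_DUX, 10.1, 9.82 and 13.8 FPKM in D4, 8.98, 7.86 and 7.58 FPKM in iPSC and 0.662, 0.291 and 0.133 FPKM in MEF libraries. Its 4 groups stood apart in this order, and the mean in D4_DUX was 4.3 times that in D4. Hist1h4n (ENSMUSG00000069305, chr13:21831767-21832196) had 15, 14.5 and 14.2 FPKM in D4_DUX, 5.03, 4.52 and 5 FPKM in D4, 21.7, 15.1 and 16.2 FPKM in iPSC and 0.826, 1.06 and 1.36 FPKM in MEF libraries. In Hist1h4n the iPSC libraries, not those of D4_DUX, were highest, so the 2 genes differed in which group led. In limma, Hist1h4m had log2 fold changes of 2.02 (SE 0.14, adjusted p = 2.69e-06), 3.17 (adjusted p = 4.87e-09) and 2.76 (adjusted p = 4.41e-09) in D4_DUX over D4, D4 over MEF and iPSC over MEF, and Hist1h4n 1.41 (SE 0.12, adjusted p = 9.43e-06), 1.5 (adjusted p = 6.57e-07) and 3.15 (adjusted p = 2.78e-10). Which of both genes a fragment of the shared coding sequence was assigned to by the authors is unknown. Added together, Hist1h4m and Hist1h4n had 26.9, 24.4 and 25.8 CPM in D4_DUX, 6.23, 5.89 and 7.71 in D4, 12.9, 9.64 and 10 in iPSC and 0.621, 0.575 and 0.64 in MEF libraries. The pair was thus higher in D4_DUX than in every other group however its fragments were divided between the 2 genes. Its mean in D4_DUX was 3.89 times that in D4, and the mean in D4 was 10.8 times that in MEF. The sum does not cover fragments that were dropped, counted for both genes or shared with other H4 genes.

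Hist1h4i (chr13:22040636-22041362) and Hist1h4h (chr13:23531050-23531519) were the other H4 genes whose mean reached 10 FPKM in any group. Hist1h4k followed with means of 5.83 FPKM in D4_DUX, 3.03 in D4, 4.96 in iPSC and 1.88 in MEF. Hist1h4i had 17.5, 19.1 and 19.2 FPKM in D4_DUX, 11.7, 11.9 and 11 FPKM in D4, 10.3, 8.17 and 9.65 FPKM in iPSC and 3.05, 3.21 and 3.36 FPKM in MEF libraries. The groups did not overlap, and the gene was higher by 0.65 (SE 0.07, adjusted p = 5.9e-05), 1.57 (adjusted p = 4.99e-09) and 1.3 (adjusted p = 7.31e-09) in D4_DUX over D4, D4 over MEF and iPSC over MEF. Hist1h4h had 17.6, 13.2 and 19.6 FPKM in D4_DUX, 7.8, 11 and 8.64 FPKM in D4, 7.06, 4.08 and 4.51 FPKM in iPSC and 0.982, 0.898 and 2.16 FPKM in MEF libraries. It spread more within groups, and its call in D4_DUX against D4 (0.8, SE 0.23, adjusted p = 0.0186) ended without D4_DUX replicate 1 or 3 or D4 replicate 1 or 3 (adjusted p = 0.053 to 0.0711), while D4 was higher than MEF by 2.14 (adjusted p = 7.88e-06). Hist2h4, on chromosome 3 with 1311 bases of 3′ UTR, stayed at 1.52 ± 0.16 FPKM in D4_DUX, 0.931 ± 0.115 in D4, 0.908 ± 0.0543 in iPSC and 0.215 ± 0.109 in MEF, and was higher in all 3 comparisons (0.38, 0.67 and 0.65, adjusted p at most 0.00254), though with quantile normalization the call in iPSC against MEF ended (0.14, adjusted p = 0.128). Hist4h4, the lone Hist4 gene, had 0.107, 0.183 and 0.103 FPKM in D4_DUX, 0.171, 0.169 and 0.126 FPKM in D4, 0.152, 0.0579 and 0.0276 FPKM in iPSC and 0.0155, 0.0149 and 0.0279 FPKM in MEF.

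Within iPSC, replicate 1 had the highest value of the 3 libraries for 38 of 66 members, replicate 2 for 15 and replicate 3 for 13. In D4_DUX the counts were 25, 17 and 24, in D4 26, 21 and 19, and in MEF 19, 22 and 25. The H4 sum was 59.2 FPKM in iPSC replicate 1, against 44.3 and 46.9 in the others. Without iPSC replicate 1, 34 members were called higher in iPSC than in MEF, and 33 to 38 when any other library of the comparison was left out. Over all 17114 genes tested, 8599 were called higher without iPSC replicate 1, and 8501 to 8625 without any other library.

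Many H2A and H2B genes lie head to head and share a promoter region. There were 11 such pairs among the members, with 175 to 301 bases between the gene starts, all of an H2A and an H2B gene. Compared within a group, the H2B gene had the higher mean in 9 of 11 pairs in D4_DUX and in 10 of 11 in D4, in iPSC and in MEF. Hist2h2be and Hist2h2ac were about equal at day 4, at 0.502 and 0.519 FPKM in D4_DUX and 0.277 and 0.271 FPKM in D4, and Hist1h2bl was below Hist1h2ai in MEF, at 0.253 and 0.295 FPKM. FPKM divides by annotated length, 2620 bases for Hist2h2be and 520 for Hist2h2ac. In fragments Hist2h2be was higher, at 36.94, 34.96 and 29.9 against 7.07, 8.68 and 5.25 in D4_DUX libraries. More of the H2A than of the H2B genes in the pairs differ from another member at 4 coding bases or fewer. How fragments shared by such copies were treated is unknown, and their part in the contrast of H2B with H2A was not tested. Hist1h2bc and Hist1h2ac, whose shared window is printed above, were at 89 ± 3.06 and 0.625 ± 0.123 FPKM in D4_DUX, 66.2 ± 2.78 and 0.31 ± 0.0934 FPKM in D4, 50.4 ± 0.912 and 0.257 ± 0.0537 FPKM in iPSC and 19.9 ± 1.18 and 0.136 ± 0.0261 FPKM in MEF. The maximal mean FPKM of Hist1h2bc was thus 142 times that of its neighbour 250 bases away, although Hist1h2ac too was higher in every D4_DUX library than in every D4 library. The annotated lengths are 1156 and 2482 bases, so the contrast in fragments is smaller. In D4_DUX libraries Hist1h2bc had 2820.4, 2662.77 and 2458.59 fragments and Hist1h2ac 42.81, 32.73 and 43.37. Their annotated 3′ ends differ too, since Hist1h2ac has the stem-loop beside AATAAA and Hist1h2bc has AATAAA only. Hist1h2bg and Hist1h2ae, 175 bases apart, were at 20.6 and 1.18 FPKM in D4_DUX, 14.4 and 0.677 in D4, 12.4 and 1.04 in iPSC and 4.09 and 0.495 in MEF. Hist1h2bf was below Hist1h2ad in all groups but MEF, at 1.17 and 2.67 FPKM in D4_DUX, 0.958 and 1.68 in D4, 1.06 and 1.98 in iPSC and 0.427 and 0.356 in MEF.

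**Figure D4:**
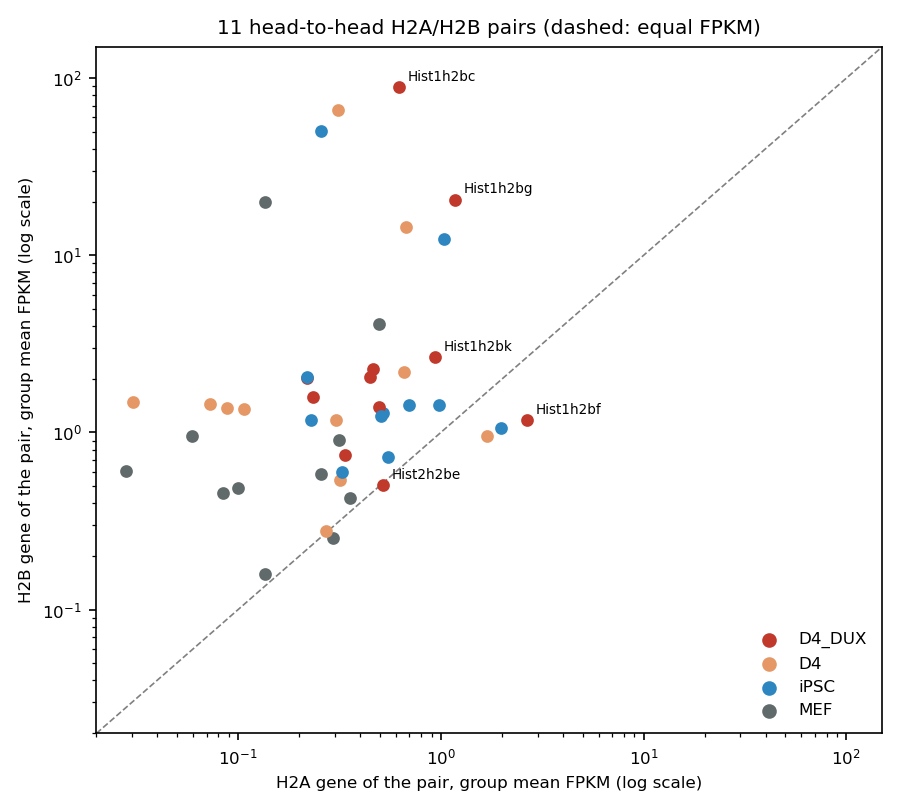
Group mean FPKM of the H2B gene (vertical, log scale) against that of the H2A gene (horizontal, log scale) of 11 head-to-head pairs, 4 points a pair for D4_DUX, D4, iPSC and MEF, with 5 pairs named by their H2B gene. Most points lie above the dashed line of equal FPKM, and the Hist1h2bc pair lies farthest from it.

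The list of histone mRNA 3′-end processing and turnover had 18 of 20 names in the table, all tested. In D4_DUX against D4, 7 of the 18 were higher and 0 lower (median log2 fold change 0.13), against 20.1% and 15.4% of all genes tested. Ncbp2, a cap-binding subunit, had 22.2 ± 1.47 FPKM in D4_DUX and 15.4 ± 0.869 in D4 (0.5, adjusted p = 3.6e-05), and Srrt, which links the cap complex to processing, 21.5 ± 1.05 in D4_DUX and 13.7 ± 0.696 in D4 (0.61, adjusted p = 3.8e-05). In D4 against MEF, 3 were higher and 10 lower (median -0.16), against 34.2% and 27.6%, and in iPSC against MEF 16 were higher and 1 lower (median 0.68), against 51% and 31.2%. No difference between this list and the histone members was tested. Slbp, the stem-loop binding protein, had 4.94, 4.83 and 5.26 FPKM in D4_DUX, 4.54, 4.75 and 4.08 FPKM in D4, 13.2, 14.1 and 14.7 FPKM in iPSC and 5.66, 5.69 and 6.42 FPKM in MEF libraries. It was lower in D4 than in MEF (-0.34, SE 0.06, adjusted p = 0.000482), higher in iPSC than in MEF (1.11, adjusted p = 7.75e-09), and at 0.14 (adjusted p = 0.102) in D4_DUX against D4. Npat, the S-phase activator of histone transcription, had 5.35 ± 0.251 FPKM in D4_DUX, 5.58 ± 0.385 in D4, 8.91 ± 1 in iPSC and 7.46 ± 0.167 in MEF, lower in D4 than in MEF (-0.36, adjusted p = 0.000837) and higher in iPSC than in MEF (0.22, adjusted p = 0.0121).

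The S phase and DNA replication list, 29 genes, summed to 269.9 ± 1.26 FPKM in D4_DUX, 274 ± 1.92 in D4, 924 ± 45.4 in iPSC and 346 ± 2.57 in MEF (SD, n = 3). In D4_DUX against D4, 4 were higher and 5 lower (median 0.02), in D4 against MEF 2 were higher and 24 lower (median -0.4), and in iPSC against MEF 26 were higher and 1 lower (median 1.16). All genes tested had 20.1% higher and 15.4% lower, 34.2% and 27.6%, and 51% and 31.2% in these comparisons, so that the S phase counts in D4_DUX against D4 were near the background. Ccna2, the S-phase cyclin A, was at 11.4 ± 0.237 FPKM in D4_DUX, 13.7 ± 0.378 in D4, 39.5 ± 1.18 in iPSC and 22 ± 0.733 in MEF, lower in D4_DUX than in D4 (-0.25, adjusted p = 0.000323) and in D4 than in MEF (-0.64, adjusted p = 2.86e-08). Canonical histone messages and S phase genes were thus both higher in iPSC than in MEF, whereas in D4 against MEF most tested histone members were higher and most S phase genes lower. The part of cell cycle stage, of polyadenylation or of message stability in these differences was not tested.

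Histone variants, which can replace canonical histones outside S phase and for the most part are made from ordinary polyadenylated messages, were all tested (11 genes). In D4_DUX against D4, 1 was higher and 2 lower (median -0.03), in D4 against MEF 1 higher and 7 lower (median -0.35), and in iPSC against MEF 7 higher and 2 lower (median 0.54). Against the same shares of all genes tested, the 2 lower in D4_DUX and the 7 higher in iPSC were near the background. H1f0, the linker histone of differentiated cells, had 51.9 ± 2.1 FPKM in D4_DUX, 63.5 ± 1.81 in D4, 49.4 ± 6.96 in iPSC and 93.6 ± 1.19 in MEF, lower in D4_DUX than in D4 (-0.29, adjusted p = 0.0127), in D4 than in MEF (-0.55, adjusted p = 5.85e-05) and in iPSC than in MEF (-0.92, adjusted p = 2.98e-07). H3f3b, a gene of the H3.3 variant, stood at 90 ± 0.987 FPKM in D4_DUX, 91.8 ± 5.82 in D4, 297 ± 5.34 in iPSC and 117 ± 3.33 in MEF, lower in D4 than in MEF (-0.35, adjusted p = 2.47e-05). H2afz was at 138 ± 2.63 FPKM in D4_DUX, 127 ± 4.44 in D4, 382 ± 40.5 in iPSC and 123 ± 14.4 in MEF, and was higher in iPSC than in MEF (1.62, adjusted p = 3.85e-09). Summed, the variants had 445 ± 6.97 FPKM in D4_DUX against 437 ± 9.26 in D4, and 437 ± 9.26 in D4 against 521 ± 31.3 in MEF. The macrophage list had 0 of 16 genes higher and 15 lower in D4_DUX against D4 (median -1.24), and 0 higher and 16 lower in D4 and in iPSC against MEF (medians -2.02 and -2.53). The fibroblast list had 1 higher and 6 lower of 10, 2 and 8, and 1 and 9 in the same comparisons, and the pluripotency list of 10 genes 2 and 1, 2 and 1, and 10 and 0. All genes tested had 20.1% higher and 15.4% lower, 34.2% and 27.6%, and 51% and 31.2%. The pluripotency counts in D4_DUX against D4 were thus near the background.

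**Figure D5:**
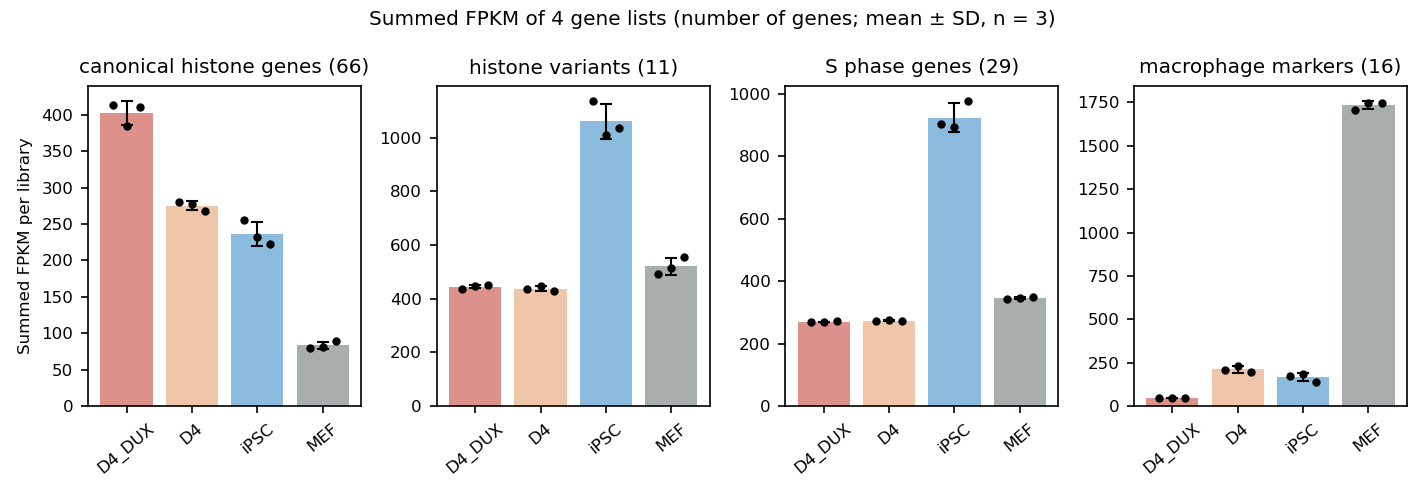
Summed FPKM per library (points) with mean (bars) and SD of 3 libraries, for the canonical histone genes, histone variants, S phase genes and macrophage markers in D4_DUX, D4, iPSC and MEF. Canonical histone genes stand at 402 FPKM in D4_DUX and 275 FPKM in D4, S phase genes at 269.9 FPKM in D4_DUX and 274 FPKM in D4.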

How the data were processed

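Poly(A)-selected RNA of 12 mouse libraries was sequenced, per the labels' protocols, from a stranded mRNA preparation with 15 PCR cycles on a NovaSeq 6000 as paired reads of 150 bp. Per the submitters' processing notes the build was mm10. Not given in the sources used here were the aligner, the counter, the annotation, the treatment of fragments shared by several genes and the use of strand in counting. The authors deposited FPKM per gene, fragments scaled by gene length and library total, in 1 column per library. Gene IDs were matched to GENCODE M21 (40225 of 40384, 99.6%). Steps of low FPKM values gave the depth of each library, as the depth with the largest share of whole numbers, and from it the recovered fragments. Among the low values used for this step, 57.4 to 61.8% per library were whole within 0.01, and 75.1 to 78.7% lay at whole numbers or midway between them. Of 66 pairs of libraries 0 held the same values, and r within groups was 0.9936 to 0.9966.

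Values were analysed as log2(FPKM + 1). limma 3.58.1 in R 4.3.3 was fitted to all 12 libraries with 4 group means and a variance prior following mean expression, after the filter of 1 FPKM in 3 libraries. The fit was tested on simulated data. Adjustment was by Benjamini-Hochberg over 17114 genes, with a threshold of 0.05. Replicate numbers did not pair libraries across groups. The members, the gene lists and the comparisons were chosen with earlier results of these data known. Named were every H1 gene, the 4 highest members of each other class, every member of Hist2, Hist3 and Hist4 reaching 1 FPKM, the 5 called members at each end of a comparison, Slbp, Npat and Duxf3, and up to 4 genes of each other list with the smallest adjusted p. Named besides, after their values were seen, were Hist1h2ac, Hist1h2ad, Hist1h2ae, Hist1h2ai, Hist1h2ba, Hist1h2be, Hist1h2bf, Hist1h2bj, Hist1h2bl, Hist1h2br, Hist1h3g, Hist1h4a, Hist1h4c, Hist1h4j, Hist2h2ac and Hist4h4, for their place in a pair or cluster, their sequence, or as members not called or not detected. Hist1h2ah, Hist1h2bb, Hist1h3i and Hist1h4k were likewise named after their values were seen, for how they passed a filter and, for Hist1h4k, also for its level. Motifs were searched as plain letters in GENCODE transcripts and RefSeq promoter windows (GRCm38.p6), and coding sequences were compared without gaps. Figures were drawn with matplotlib 3.10.9.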

Additional observations from a re-analysis of the deposited data

How the results depend on the processing

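Alternatives were pseudocounts of 0.1 and 0.5, no filter or a filter of 5 FPKM, median-ratio, quantile or TPM scaling, voom on recovered fragments, only the 6 libraries compared, a constant variance prior, the replicate block and each library left out. With the filter of 5 FPKM, 11 members were tested. Of these, 10 were higher in D4_DUX than in D4, 10 higher and 0 lower in D4 than in MEF, and 11 higher in iPSC than in MEF. Over all 10501 genes tested with this filter, 2709, 4221 and 5570 were higher in these comparisons, and 3087 were lower in D4 than in MEF. Hist2h3c2 reached 5 FPKM in D4_DUX only, and Hist1h4k in too few libraries outside D4_DUX to pass. The filter thus selected both for being high in D4_DUX, and these counts are descriptions, not support. Quantile normalization gave 22 members higher in iPSC than in MEF, and 2 lower in D4 than in MEF, as did voom. Over all genes, quantile normalization called 6609 of 17114 higher in iPSC than in MEF and 5386 lower in D4 than in MEF. Voom called 5452 of 17085 lower in D4 than in MEF. The lower count in D4_DUX against D4 was 0 without a filter, and 0 to 1 with a library left out. Over all genes it was 2444 of 40384 and 2130 to 2334 of 17114. In D4 against MEF the lower count was 1 to 2 with a library left out, with 2 without D4 replicate 2. Over all genes it was 4385 to 4518 of 17114. Fitting the replicate block gave 25 higher and 1 lower in D4_DUX against D4, 29 and 1 in D4 against MEF, and 37 and 0 in iPSC against MEF. Over all 17114 genes the block gave 3182 higher and 2495 lower, 5746 and 4635, and 8691 and 5283. Same-numbered libraries deviated together with correlations of -0.146 to 0.062. The ratio of summed FPKM became 1.99 (D4_DUX over D4) and 3.66 (iPSC over MEF) without Hist1h1c and Hist1h2bc, and 2.42 (iPSC over MEF) with median-ratio scaling, alternatives added after the data were seen.

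Of 1134 values of named members under alternatives, 1093 kept direction and side of the threshold, 28 lost the call, 7 gained it and 6 turned direction, none of these called. Those were Hist3h2ba in D4_DUX against D4 (0.01 without D4_DUX replicate 2, 0.05 without D4 replicate 2, range -0.16 to 0.05 over left-out libraries), Hist1h2af in D4 against MEF (0.03 and 0.01 without D4 replicate 1 or 2, 0.08 without MEF replicate 3, range -0.1 to 0.08), and Hist2h2bb in iPSC against MEF (-0.08 with quantile normalization). The cause was not tested. Genes under 3 fragments in a library are limited by depth, and near-identical copies by the unknown treatment of shared fragments.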

Other observations

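Outside the protein-coding members, the table holds Hist1h2al, annotated as a processed pseudogene of H2A (chr13:51202727-51203065, minus strand), away from the main Hist1 cluster. It had 13.7, 14.4 and 18.6 FPKM in D4_DUX, 9.79, 9.51 and 10 FPKM in D4, 0.215, 0.336 and 0.281 FPKM in iPSC, and 0.0655, 0.0835 and 0.0828 FPKM in MEF libraries, the last under 3 fragments in each library. Its mean of 15.6 FPKM in D4_DUX and of 9.78 FPKM in D4 lay above the mean of each canonical H2A member other than Hist2h2aa1 in the same group. In limma it was higher in D4_DUX than in D4 (log2 fold change 0.61, SE 0.09, Benjamini-Hochberg adjusted p = 0.000419) and higher in D4 than in MEF by a fitted 3.32 (adjusted p = 6.84e-11). Hist1h2aj, an unprocessed pseudogene inside the cluster, had 0.524 ± 0.117 FPKM in D4_DUX, 0.297 ± 0.128 in D4, 0.831 ± 0.32 in iPSC and 0.197 ± 0.0264 in MEF (SD, n = 3). Both genes were picked after their values were seen.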
